A study of Mus musculus with 4 samples.

Results

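Lin28a, Lin28b, L1td1, Trim71, Dis3l2, Igf2bp1, Igf2bp2, Igf2bp3, Dgcr8 and Drosha encode RNA-binding proteins and RNA-processing enzymes of stem cells that are centred on the Lin28 and let-7 pathway. They were chosen by symbol, and all 10 were found, each as 1 of the 46603 gene IDs in the authors' deposited table. The study sequenced polyadenylated RNA of mouse embryonic stem cells, 2 samples of genotype Gsk3a-/-;Gsk3b-/- and 2 of wild type. Cultures of each genotype were grown on irradiated mouse embryonic fibroblasts in serum medium with LIF, the cytokine that holds mouse stem cells undifferentiated, so RNA of the feeder cells can be in every library. The sample labels give embryonic day 16 as the age, whereas the design text writes E15 before the cells, and neither says what the number stands for in a cultured line. They do not describe the null alleles or say whether a genotype is 1 clone.

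The table compares a group B with a group A, and no source used here says which letter is which genotype. All values below are therefore for group B, set against group A. The table holds means of normalized counts, that is, of reads scaled by a size factor for the depth of each library. The count of each library was recovered from these means, and the libraries are called B1, B2, A1 and A2, in an order unrelated to the labels' replicates. Library totals ranged from 112655210 to 146326307 counts. The smallest count of a member in any library was 2046, so the spread between libraries, not counting error, limits the precision. The design calls the samples biological replicates but does not say whether they came from separate lines or cultures, so p-values measure only the spread between these samples.

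The let-7 microRNAs are small RNAs that hold back growth-promoting and fetal messages, and they accumulate as stem cells differentiate. A let-7 transcript is first cut in the nucleus by Drosha and its partner Dgcr8 and then, in the cytoplasm, by Dicer. Lin28a and Lin28b bind let-7 transcripts and block their maturation. Uridine added to the end of a precursor bound by Lin28a marks it for the exonuclease Dis3l2. Messages for several of these proteins are themselves let-7 targets, which makes the pathway a mutual switch.

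All 8 mature let-7 sequences of the 5′ arm in RefSeq (GRCm38.p6) share the seed, bases 2 to 8, that pairs with a message. The sequences are shown because their seed defines the sites searched for in the members, and the let-7g precursor because it carries GGAG, a motif that Lin28 proteins recognise. The seed, and GGAG in the precursor, are in capitals.
mmu-let-7a-5p: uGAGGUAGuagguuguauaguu
mmu-let-7d-5p: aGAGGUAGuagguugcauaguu
mmu-let-7g-5p: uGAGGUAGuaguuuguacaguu
mmu-let-7i-5p: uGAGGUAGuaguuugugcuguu
Mirlet7g precursor, chr9:106178840-106178927, plus strand: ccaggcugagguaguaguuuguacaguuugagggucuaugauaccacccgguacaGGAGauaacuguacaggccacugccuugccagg
GGAG was present in 9 of the 11 let-7 precursors of the RefSeq table.

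The letters that pair with this seed, CTACCTC, were present in the 3′ untranslated region (3′ UTR, the part of a message after the stop codon) of 6 of the 10 members. They were searched for on the message strand only, in 1 annotated transcript per gene (GENCODE M21). Trim71, Lin28b and Igf2bp1 had 4 matches each, Lin28a had 2, and Igf2bp2 and Igf2bp3 had 1 each. L1td1, Dis3l2, Dgcr8 and Drosha had 0 matches in 3′ UTRs of 364, 347, 1574 and 169 bases. Over all 21039 protein-coding 3′ UTRs, 8.18% held a match. Among the 4805 of at least 2000 bases the share was 19.6%, and the 3′ UTRs of Lin28a, Lin28b, Trim71, Igf2bp1 and Igf2bp3 were of that length (2119 to 6337 bases). Only 30 of the 21039, or 0.143%, held 3 or more, and Trim71, Lin28b and Igf2bp1 were among them. A match is a description of the letters and not evidence that let-7 binds there. The first match of each gene, and the second of Lin28a, are shown with the paired letters in capitals, as message-strand DNA from positions of mm10.
Lin28a, chr4:134005178-134005207, minus strand: agcctgttgaaCTACCTCatttttgccgat
Lin28a, chr4:134004540-134004569, minus strand: tcgccacaaacCTACCTCactgtgttgaaa
Lin28b, chr10:45381011-45381040, minus strand: gggcgggaagtCTACCTCatgcaagcacag
Trim71, chr9:114512461-114512490, minus strand: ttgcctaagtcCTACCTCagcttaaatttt
Igf2bp1, chr11:95961767-95961796, minus strand: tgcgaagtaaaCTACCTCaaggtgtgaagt
Igf2bp2, chr16:22059462-22059491, minus strand: acaaataaaagCTACCTCaggtgtttttta
Igf2bp3, chr6:49086776-49086805, minus strand: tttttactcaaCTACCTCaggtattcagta
An A follows the match in each of these 7 stretches, and in every match of Lin28a, Trim71, Igf2bp2 and Igf2bp3. It follows 3 of the 4 matches of Igf2bp1 and 1 of the 4 of Lin28b, so the stretch shown for Lin28b is the exception among its matches.

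Of the 10 members, 1 was higher and 2 were lower in group B in the authors' deposited test at an adjusted p of 0.05. The gene that rose was Igf2bp2, and those that fell were Lin28a and L1td1. Over all 30237 genes with a p-value 3.46% passed this test, 1.54% higher and 1.92% lower. Among the 10106 abundant genes, those whose mean was 1000 or more as it was for all members, 5.04% passed, 2.38% higher and 2.65% lower. All members were separated between the groups, 5 with both B libraries above both A libraries and 5 below. That was so for 55% of the abundant genes, 28.9% above and 26.1% below. The median absolute log2 fold change was 0.42 for the members and 0.17 for abundant genes, and the medians with sign were -0.02 and 0.01. With limma, a linear model run on the recovered log2 counts, 1 member was higher and 0 were lower at an adjusted p of 0.05. Of 20465 genes whose mean was 10 or more, a wider set than the abundant genes, 2.01% were called (0.977% higher and 1.03% lower). At an unadjusted p of 0.05, 3 members were higher and 3 lower in the authors' deposited table, where 15.5% of abundant genes passed. With limma 3 were higher and 4 lower, where 22.9% of abundant genes passed.

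**Figure D1:**
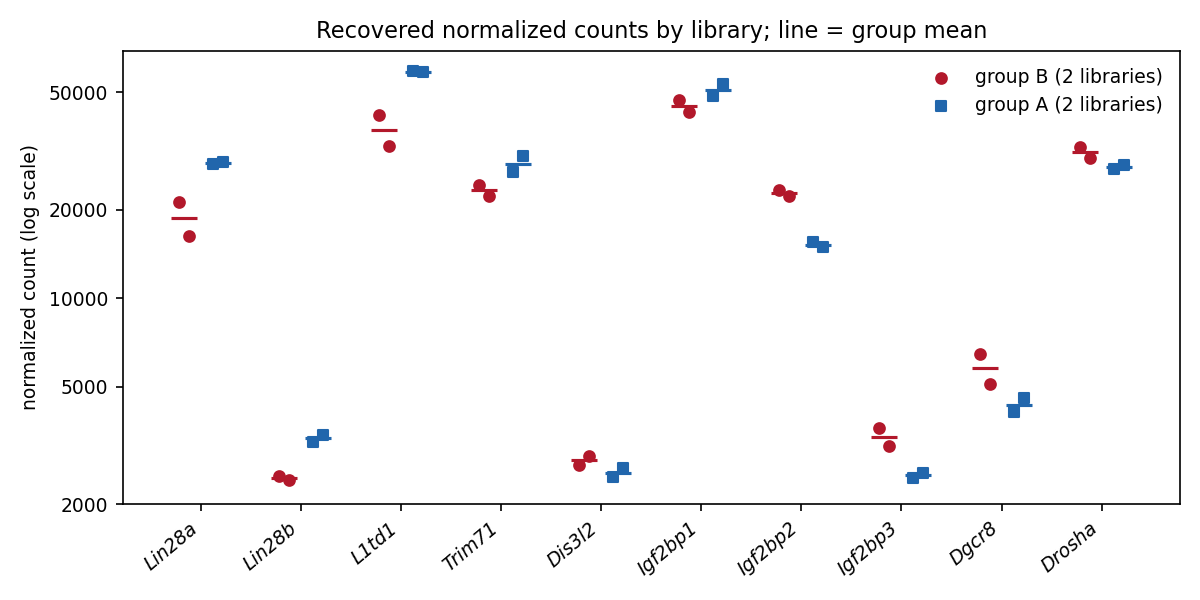
Normalized counts of the 10 genes (log axis) in each library, group B as red circles and group A as blue squares, with a line at each group's mean. Lin28a and L1td1 lie lower in group B, Igf2bp2 lies higher, and no gene's groups overlap.

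Lin28a (ENSMUSG00000050966, chromosome 4, 134003330 to 134018841, mm10, minus strand), the let-7 blocker of the stem cell cytoplasm, had normalized counts of 21204 in B1 and 16260 in B2, against 28487 in A1 and 28950 in A2. The A libraries nearly coincide, and the B libraries lie below them and apart from each other. In the authors' deposited table its log2 fold change was -0.62, a level of 0.65 times that of group A, with an adjusted p of 0.0340. The limma estimate was -0.63 (SE 0.14, 95% interval -0.97 to -0.29, adjusted p 0.0808). The limma estimate was -0.82 without B1, -0.44 without B2, -0.64 without A1 and -0.62 without A2. Among abundant genes, 7.20% had an absolute log2 fold change at least as large as that of Lin28a. In RNA of whole cultures, fewer cells that express a gene and less of its RNA per cell cannot be told apart.

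Lin28b (ENSMUSG00000063804, chromosome 10, 45376620 to 45486395), the paralogue that also blocks let-7 maturation, was the far scarcer of the pair. Its normalized counts were 2495 in B1 and 2419 in B2, against 3256 in A1 and 3435 in A2. The libraries of each group lie close together, and the B libraries are below. Its log2 fold change of -0.45 did not pass in the authors' deposited table (adjusted p 0.276), nor did the limma estimate of -0.44 (SE 0.12, 95% interval -0.74 to -0.15, adjusted p 0.120). Per kilobase of exon, Lin28a made up 95.1% and 93.8% of the Lin28 transcripts in B1 and B2 and 95.2% and 95% in A1 and A2. Lin28a thus stayed the predominant transcript in every library.

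L1td1 (ENSMUSG00000087166, chromosome 4, 98726734 to 98738480, plus strand) encodes an RNA-binding protein that descends from the open reading frame of a LINE-1 transposon and associates with LIN28 in human pluripotent cells. It had normalized counts of 41880 in B1 and 32838 in B2, against 58965 in A1 and 58535 in A2. As with Lin28a, the A libraries nearly coincide and B2 is the lowest. In the authors' deposited table the log2 fold change was -0.65 (adjusted p 0.0177). With limma it was -0.66 (SE 0.13, 95% interval -0.97 to -0.35, adjusted p 0.0620). The limma estimate was -0.84 without B1, -0.49 without B2, -0.66 without A1 and -0.67 without A2.

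L1td1 was also the gene whose pattern lay closest to that of Lin28a. Likeness was measured over the 4 libraries as the distance between the genes' log2 deviations from their own means, among 10097 other abundant genes. The distance was 0.0478 for L1td1, 0.0531 for Tle4, a corepressor of the Groucho family, 0.0551 for Diaph1, a formin that nucleates actin, 0.0645 for Gm4631 and 0.106 for Smarcad1, a chromatin remodeller. Of these, L1td1 and Tle4 passed the authors' test. The next closest member was Lin28b, at a distance of 0.304 and rank 310. Igf2bp2 was the farthest, at 1.24 and rank 9450. With 4 libraries this is a description of the same contrast.

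Trim71 (ENSMUSG00000079259, chromosome 9, 114507133 to 114564369, minus strand), a homologue of worm LIN-41, is an RNA-binding ubiquitin ligase that represses messages and a classical let-7 target. Its normalized counts were 24274 in B1 and 22234 in B2, against 26738 in A1 and 30290 in A2. The groups do not overlap, but the gap between them is smaller than the difference between the A libraries. The log2 fold change of -0.29 did not pass in the authors' deposited table (adjusted p 0.730). The limma estimate was -0.29 (SE 0.10, 95% interval -0.54 to -0.04, adjusted p 0.186).

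Dis3l2 (ENSMUSG00000053333, chromosome 1, 86703808 to 87050095, plus strand), the exonuclease that degrades uridylated let-7 precursors, had 2715 in B1 and 2921 in B2, against 2473 in A1 and 2646 in A2, as normalized counts. B1 and A2 are nearly equal. In the authors' deposited table the log2 fold change was 0.14 (adjusted p 1). The limma 95% interval, -0.17 to 0.45, spans 0 and leaves room for a change of either sign (SE 0.13, adjusted p 0.592). The estimate was 0.14 with all libraries, 0.09 without A1 and 0.09 without B2.

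**Figure D2:**
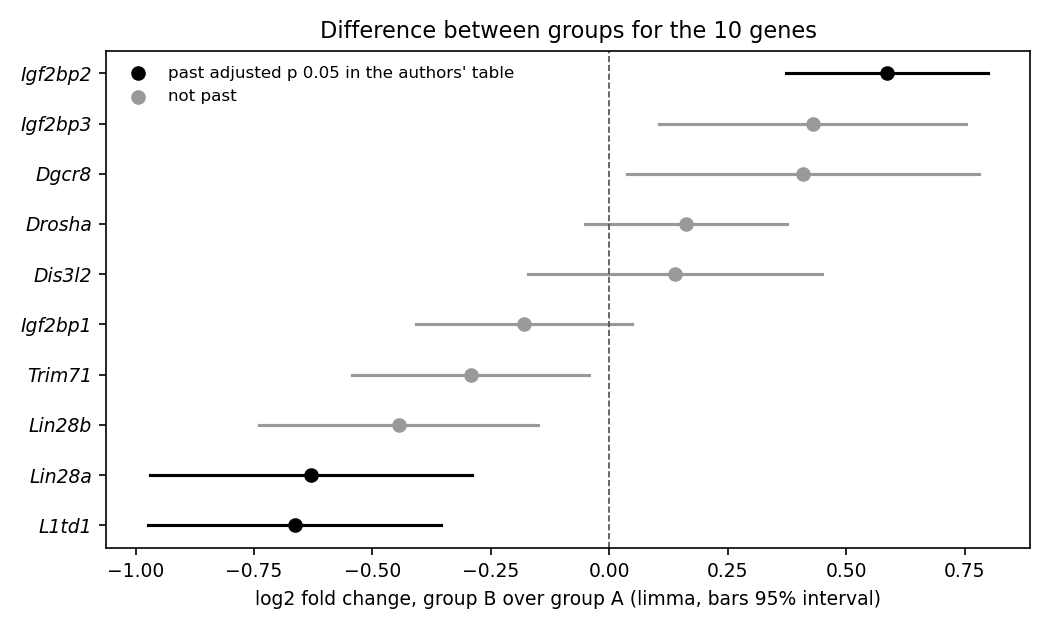
Limma log2 fold change of group B over group A for the 10 genes, with 95% intervals. Black marks the genes past an adjusted p of 0.05 in the authors' deposited table. The intervals of Drosha, Dis3l2 and Igf2bp1 span 0, and that of Igf2bp2 runs from 0.37 to 0.80.

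The Igf2bp genes encode proteins that bind messages and protect or localise them, and in human cells they read the m6A mark. Igf2bp2 (ENSMUSG00000033581, chromosome 16, 22059009 to 22163299, minus strand) was the member that rose. Its normalized counts were 23374 in B1 and 22245 in B2, against 15468 in A1 and 14912 in A2. The libraries of each group lie close together and the groups far apart. In the authors' deposited table the means were 22809 in group B and 15190 in group A, and the log2 fold change was 0.59 (adjusted p 0.0350). With limma it was 0.59 (SE 0.09, 95% interval 0.37 to 0.80, adjusted p 0.0409), and it was the only member that passed in both tests. The limma estimate was 0.55 without B1, 0.62 without B2, 0.61 without A1 and 0.56 without A2.

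Igf2bp1 (ENSMUSG00000013415, chromosome 11, 95957163 to 96005940) had normalized counts of 47208 in B1 and 42828 in B2, against 48452 in A1 and 53534 in A2. B1 and A1 differ little, and the groups are barely apart. Its log2 fold change of -0.18 had an adjusted p of 1 in the authors' deposited table, and the limma 95% interval was -0.41 to 0.05 (SE 0.09, adjusted p 0.339). The limma estimate was -0.11 without A2 and -0.11 without B2. Igf2bp3 (ENSMUSG00000029814, chromosome 6, 49085223 to 49214957), the scarcest of the 3, had 3619 in B1 and 3146 in B2, against 2463 in A1 and 2549 in A2. Its B libraries are above the A libraries. The log2 fold change of 0.43 did not pass in the authors' deposited table (adjusted p 0.260), nor with limma (0.43, SE 0.13, 95% interval 0.11 to 0.75, adjusted p 0.151).

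Igf2bp2 was thus the one gene of the 3 that passed. Per kilobase of exon, Igf2bp2 was 37.3% and 38.5% of the Igf2bp transcripts in B1 and B2, against 28.3% and 25.6% in A1 and A2. Igf2bp1 was 57.5% and 56.6% in B1 and B2, against 67.7% and 70.4% in A1 and A2. Igf2bp1 was the most abundant of the 3 in every library, 1.54 and 1.47 times Igf2bp2 per kilobase in B1 and B2, and 2.39 and 2.74 times in A1 and A2. These sizes depend on the length used. Over all libraries Igf2bp1 and Igf2bp2 had 4958 and 2567 per kilobase of merged exon, but 5730 and 3837 per kilobase of the longest transcript. The shares were computed from the same counts as the tests above and were not tested on their own. Igf2bp3 shares 1529 exon bases with Malsu1 on the opposite strand, and whether reads were counted by strand is unknown here, so its value is uncertain. In the authors' deposited table Malsu1 had -0.25 on the log2 scale (adjusted p 0.910).

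**Figure D3:**
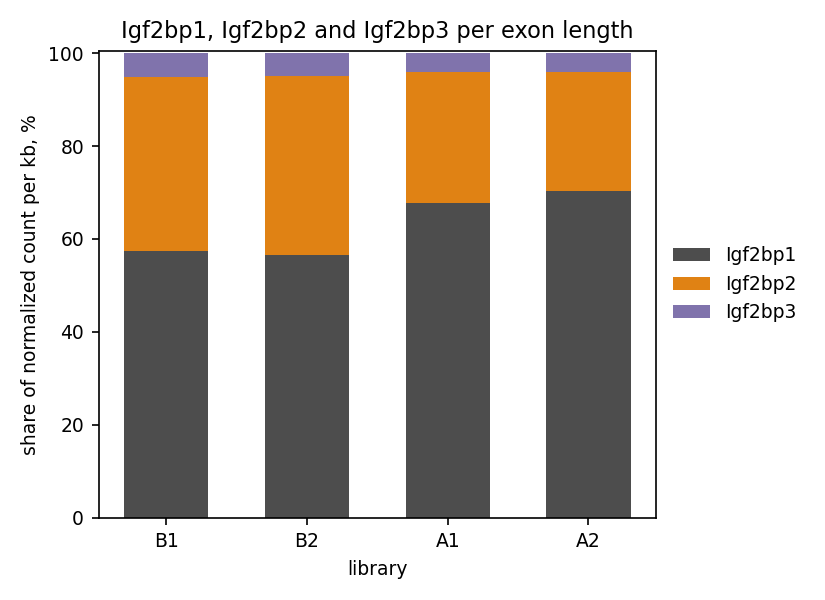
Share of each Igf2bp gene in the summed normalized count per kilobase of exon, in percent, by library. Igf2bp2 takes 37.3% and 38.5% in the B libraries, against 28.3% and 25.6% in the A libraries.

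The Microprocessor genes had higher values in group B without passing the test. Dgcr8 (ENSMUSG00000022718, chromosome 16, 18253948 to 18289246), which holds the hairpin of a primary microRNA transcript, had normalized counts of 6488 in B1 and 5129 in B2, against 4126 in A1 and 4577 in A2. B1 stands apart, and B2 is the closer to group A. In the authors' deposited table the log2 fold change was 0.42 (adjusted p 0.362). The limma estimate was 0.41 (SE 0.15, 95% interval 0.04 to 0.78, adjusted p 0.207), and its log2 value was 0.58 without B2 and 0.24 without B1. Dgcr8 shares 825 exon bases with Trmt2a on the opposite strand, and 327 bases with Gm49776, so its value is uncertain too.

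Drosha (ENSMUSG00000022191, chromosome 15, 12824815 to 12935291), the nuclease that cuts the hairpin, had 32669 in B1 and 29817 in B2, against 27473 in A1 and 28316 in A2, as normalized counts. B2 and A2 are close. Its log2 fold change of 0.16 had an adjusted p of 1 in the authors' deposited table, and the limma 95% interval was -0.05 to 0.38 (SE 0.09, adjusted p 0.354). The limma estimate was 0.16 with all libraries and 0.10 without B1. Per kilobase of exon, Drosha was 6.53 and 7.54 times as abundant as Dgcr8 in B1 and B2, and 8.63 and 8.02 times in A1 and A2. Over all libraries they had 4982 and 660.1 per kilobase of merged exon, but 6470 and 1176 per kilobase of the longest transcript. Microprocessor is known to cut the Dgcr8 message itself.

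The order of levels could be compared between genes only per exon length. L1td1 was first in every library, with 13195 and 10346 normalized counts per kilobase in B1 and B2, against 18577 and 18442 in A1 and A2. Lin28a (4069 to 7245 per kilobase), Drosha (4629 to 5505) and Igf2bp1 (4423 to 5529) came next, and their ranges overlap. Lin28a came right after L1td1 in both A libraries, whereas Drosha was above it in both B libraries. Trim71 (2383 to 3246) and Igf2bp2 (2015 to 3158) followed, and Igf2bp2 was above Trim71 in both B libraries and below it in both A libraries. Dgcr8 (536.1 to 843.0) stood alone. Igf2bp3, Lin28b and Dis3l2 were the lowest, with 266.8 to 443.6 per kilobase, and they overlap with their neighbours. Among 20349 genes whose mean was 10 or more, L1td1 lay at percentile 96.4 and Dis3l2 at percentile 50.2.

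The let-7 genes themselves had few reads in these libraries, which hold polyadenylated RNA and do not measure mature microRNAs. Each row covers only the precursor hairpin, for example 94 bases for Mirlet7a-1 and 85 for Mirlet7i. Few reads there do not show that the let-7 genes were silent. Of 12 rows for let-7 genes, Mir98 included, 6 had any count. They summed to 17 counts in B1 and 11 in B2, against 21 in A1 and 15 in A2, and most belonged to Mirlet7a-1 (6 and 7 in B1 and B2, 8 and 5 in A1 and A2) and Mirlet7i (4 and 3 in B1 and B2, 12 and 9 in A1 and A2). Counts this low give no comparison of let-7 between the groups. Mir17hg, named after its value was seen, the host transcript of the miR-17 cluster, was abundant, with a mean of 4487 in group B and 5053 in group A (-0.17 on the log2 scale in the authors' deposited table, adjusted p 1).

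Genes of the surrounding pathways showed few calls in the authors' deposited table. In all, 2 of 107 genes on 5 lists were higher and 3 were lower, or 4.67%, near the 3.46% of all genes and the 5.04% of abundant genes. The medians of the lists, over genes whose mean was 10 or more, ran from -0.07 to 0.05, beside 0.01 for all such genes.

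Of 16 genes of microRNA processing and the Argonaute proteins, 0 passed and 0 had an unadjusted p under 0.05 in the authors' deposited table, while limma gave 0 and 1. Their most abundant members were the RNA helicase Ddx5 (log2 fold change 0.04) and Ran, the GTPase of nuclear export (-0.30, adjusted p 0.653). Dicer1, named after its value was seen, had 0.12 and Xpo5, the exporter of precursors, -0.04. Of 22 measured genes of uridylation and the RNA exosome, Dis3l, a cytoplasmic exosome nuclease and relative of Dis3l2, was lower. Of the 22, 4 had an unadjusted p under 0.05 (5 with limma), near the 15.5% and 22.9% of abundant genes. Dis3l had normalized counts of 1294 in B1 and 1371 in B2, against 1974 in A1 and 2245 in A2 (log2 fold change -0.66, adjusted p 0.0279 in the authors' deposited table, limma adjusted p 0.0808). The nuclease Xrn2, at 0.53, and the helicase Skiv2l2, at -0.23, did not pass (adjusted p 0.0914 and 0.984). The uridylyltransferases that act on let-7 precursors, Zcchc11 and Zcchc6, named after their values were seen, had -0.17 and 0.39 and did not pass.

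Among 23 known let-7 target transcripts outside the members, 1 was higher and 2 were lower. Mycn, a Myc family oncogene, had 4909 in B1 and 3893 in B2, against 10521 in A1 and 13415 in A2, and fell, with a log2 fold change of -1.44 (adjusted p 4.63e-05 in the authors' deposited table, limma 0.0312). Myc had 3245 in B1 and 3330 in B2, against 5279 in A1 and 5441 in A2 (-0.71, adjusted p 0.00779 there, limma 0.0444). Bach1, a repressor of haem and oxidative stress genes, had 6914 in B1 and 5551 in B2, against 3826 in A1 and 3650 in A2 (0.74, adjusted p 0.00802 there, limma 0.0644). The most abundant, Cdc34, a ubiquitin-conjugating enzyme, and Hmga1, a chromatin protein, had log2 fold changes of 0.007 and -0.25 and did not pass. At an unadjusted p under 0.05 there were 9 of the 23 in the authors' deposited table and 11 with limma, beside the 15.5% and 22.9% of abundant genes. Both B libraries were below both A for 11 targets and above for 5, beside 26.1% and 28.9% of abundant genes. The median of the list was -0.07.

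A wider view came from the abundant genes. Of 866 with CTACCTC in the 3′ UTR, 23 were higher and 21 lower in the authors' deposited table (5.08%, median log2 fold change 0.02), beside 205 and 226 of 8042 genes without it (5.36%, median 0.01). Of the 18 with 3 or more matches, 0 passed in the authors' deposited test or in limma. In the authors' test 3 had an unadjusted p under 0.05, near the 15.5% of abundant genes. All 3 were already counted above, Lin28b as a member, Hmga2 and Nr6a1, named after their values were seen, as let-7 targets. The 18 also included the members Trim71 and Igf2bp1. They included Hmga2, named after its value was seen, a chromatin protein of embryonic cells, with 11826 in B1 and 16339 in B2, against 7659 in A1 and 5615 in A2 (1.09 on the log2 scale in the authors' deposited table, adjusted p 0.0738).

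Of 32 measured other RNA-binding regulators, Rbm47, a splicing and editing cofactor, rose, with 2466 in B1 and 2606 in B2, against 1430 in A1 and 1685 in A2 (0.70, adjusted p 0.0137 in the authors' deposited table, limma 0.0724). At an unadjusted p under 0.05 there were 3 of the 32, and 7 with limma, beside 15.5% and 22.9% of abundant genes. The list's median was -0.07 and its mean 0.05, so they differ in sign. Its most abundant members, the cold-shock protein Ybx1 and the zinc finger protein Cnbp, had 0.09 and -0.31 and did not pass. Of 14 genes that write, read or erase m6A, 0 passed and 0 had an unadjusted p under 0.05 in either test, with log2 fold changes of 0.09 for the reader Ythdf1 and -0.03 for Wtap, a subunit of the writer.

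**Figure D4:**
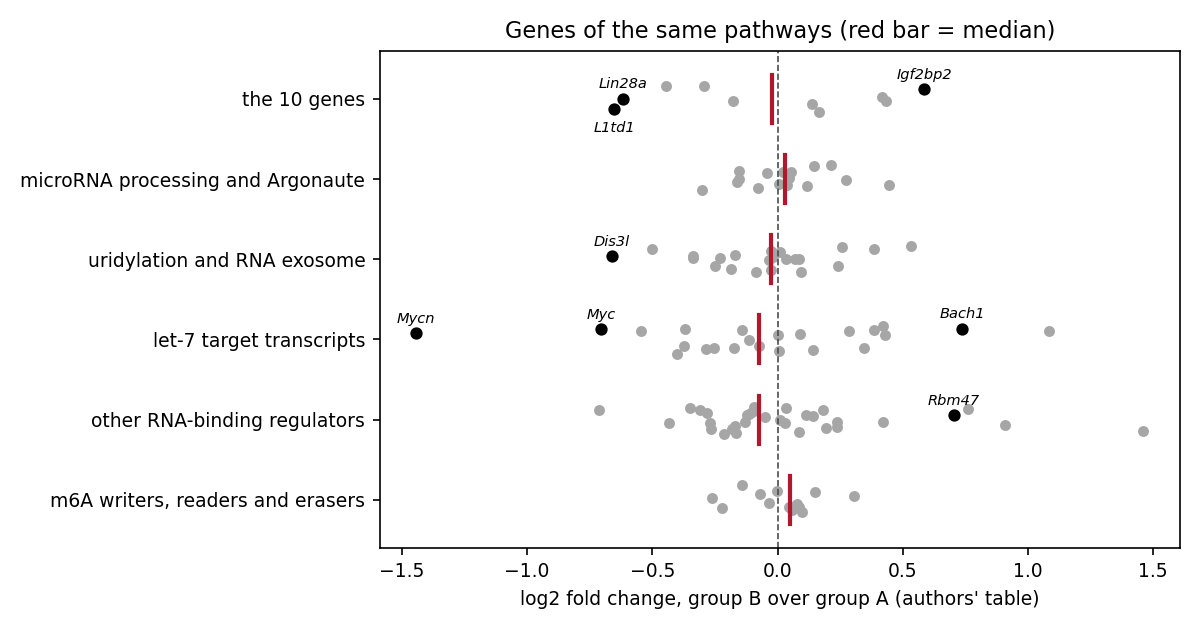
Log2 fold change of group B over group A in the authors' deposited table for the 10 genes and for the genes of 5 pathway lists whose mean was 10 or more, with called genes in black and named and a red bar at the median. The list medians lie between -0.07 and 0.05.

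Markers of cell types differed between libraries, and the endoderm and macrophage lists had positive median log2 fold changes. Pluripotent markers were abundant everywhere, Pou5f1 with 105468 and 93404 in B1 and B2, against 115577 and 125786 in A1 and A2 (-0.28 on the log2 scale in the authors' deposited table, adjusted p 0.790). Esrrb, the other most abundant one, had -0.0099. Of 8 such markers 0 passed in either test. In the authors' test 1 had an unadjusted p under 0.05 and in limma 4 did, beside 15.5% and 22.9% of abundant genes. Both B libraries were below both A for 4 of the 8 and above for 0, beside 26.1% and 28.9% of abundant genes. The median log2 fold change of the 8 was -0.20. The 11 endoderm markers summed to 45019 normalized counts in B1 and 17480 in B2, against 11633 in A1 and 6120 in A2. For 6 of the 11 the B libraries lay above the A libraries and for 1 below, beside 28.9% and 26.1% of abundant genes. Of these markers 0 were called in the authors' test, where 3.46% of all genes passed. Limma called 3 higher, beside 0.977% of genes whose mean was 10 or more. In each test 7 had an unadjusted p under 0.05, beside 15.5% and 22.9% of abundant genes. The 7 include the scarce Ttr, named after its value was seen, which was lower in group B (-2.46 on the log2 scale). In the authors' deposited table the median log2 fold change of the 10 endoderm markers whose mean was 10 or more was 2.49. It was 2.99 for Gata4 (adjusted p 0.285) and 0.81 for Dab2 (adjusted p 1). The 12 feeder fibroblast markers summed to 31658 in B1 and 182292 in B2, against 125126 in A1 and 58468 in A2, and none separated the groups, with 0.39 for Col1a1 and 0.26 for Col1a2 on the log2 scale (adjusted p 1 each). The 11 macrophage markers summed to 21190 in B1 and 28212 in B2, against 27318 in A1 and 28848 in A2, but most of each sum was Laptm5 (17665 and 24220 in B1 and B2, 23927 and 25863 in A1 and A2). Both B libraries were above both A for 7 of the 11 and below for 2, Cd68 (-0.35, adjusted p 0.592) among them. The median log2 fold change was 1.37. Abundant genes had shares of 28.9% above and 26.1% below, but most macrophage markers were scarcer. The authors' test called 2 higher, Lyz2, with 950.7 and 1338 in B1 and B2, against 289.3 and 234.3 in A1 and A2, and Ptprc, with 45.8 and 35.5, against 1.8 and 11.9. Limma called Lyz2 alone (adjusted p 0.0309). Over all genes with a p-value the authors' test called 1.54% higher, and limma called 0.977% of genes whose mean was 10 or more higher. Lin28a and L1td1 were lower in B2, the library with the most feeder signal, than in B1, the library with the most endoderm signal. A1 and A2 nearly coincided for both genes, and their feeder and endoderm sums lay closer together than those of B1 and B2. Igf2bp2 differed by 0.07 on the log2 scale between B1 and B2. The part of endoderm, feeder or macrophage RNA in the members' differences was not tested.

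**Figure D5:**
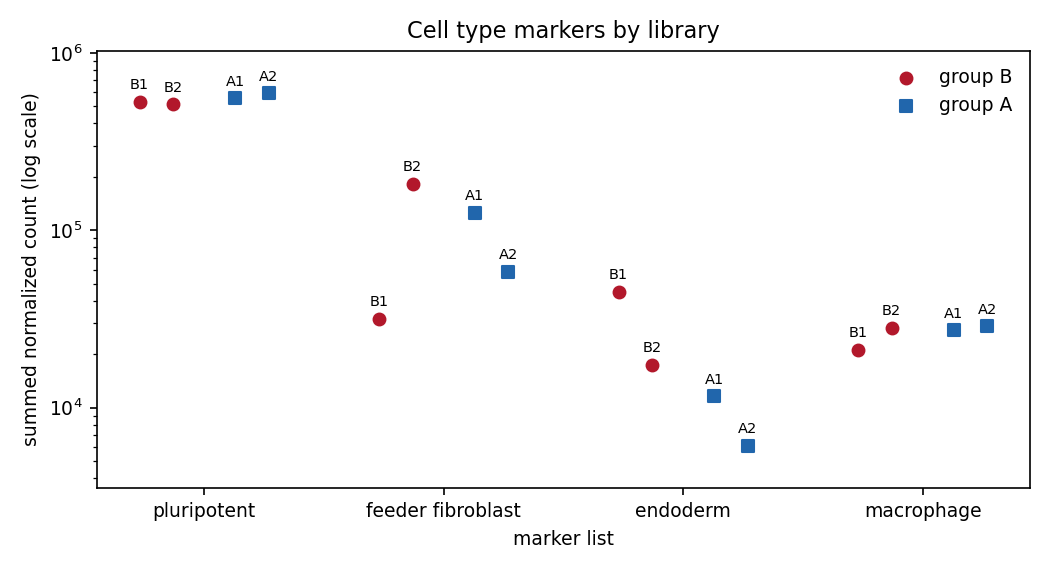
Summed normalized counts (log axis) of 4 lists of cell type markers in each library, group B as red circles and group A as blue squares. Feeder fibroblast markers are highest in B2 (182292) and lowest in B1 (31658), and endoderm markers are highest in B1 (45019).

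The targeted genes were read beside the members, and the letters were not assigned from them. Gsk3a had 1697 in B1 and 1347 in B2, against 6353 in A1 and 7104 in A2, and Gsk3b had 5051 and 5002, against 5438 and 6285. Only Gsk3a passed in the authors' deposited table (log2 fold change -2.14, adjusted p 4.90e-24), and a gene can keep a counted transcript after part of it is deleted.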

How the data were processed

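Per the submitters' processing notes, the authors used STAR, DESeq and the build mm10. How reads were counted, with which annotation and strand setting, and the versions are not given in these sources. The authors' deposited table gives per gene mean normalized counts (reads divided by size factors), the fold ratio of the means, the log2 of that ratio, and p-values before and after adjustment. Its 46608 rows hold 46603 gene IDs, 30237 with a p-value. The authors' test was used as the main test because the table holds no single samples.

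A mean of 2 libraries is a sum of whole counts times a step per library. The steps gave whole counts within 1e-06 for all genes with a mean, and matched size factors computed from those counts by median of ratios to within 1.55e-15. The recovery was also run on simulated counts, in which genes with a single count in 1 library of a group were put in. That run therefore cannot show that the steps can be found in the deposited values. limma 3.58.1 (R 4.3.3, mean-variance trend, two-sided, Benjamini-Hochberg) was fitted to log2(normalized count + 1) for 20465 genes whose mean was 10 or more. Such fold changes understate those of low genes. Positions, exon lengths and 3′ UTRs come from GENCODE M21 on the same build, and microRNA sequences from RefSeq. The annotation gives the older symbol Kiaa1429 as Virma, and Exosc6 was not used here.

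The members and lists were chosen with earlier results of these data known. Genes were named by rule: all members, from each list up to 6 past the threshold and the 2 most abundant, Gsk3a and Gsk3b, and the 5 genes most like Lin28a. Exceptions are marked.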

Additional observations from a re-analysis of the deposited data

How the results depend on the processing

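Over 15 alternatives for each of the 10 members, a call was lost in 23 of the 150 values. All 23 belonged to Lin28a, L1td1 and Igf2bp2, since the other members had no call to lose. The calls of Lin28a and L1td1 were lost at an adjusted p of 0.01 and in limma under each filter, pseudocount and scaling. The direction of the 150 values is no sign of stability, because 4 alternatives only adjust the authors' p or its threshold and the groups do not overlap. With limma on the recovered counts, 1 member was higher and 0 were lower, against 1 and 2 in the authors' test, and the same counts came with no filter, a mean of at least 50, a pseudocount of 0.5 or 8, and total-count or upper-quartile scaling. At an adjusted p of 0.01 in the authors' test 0 members were higher and 0 lower. When 1 library was left out of limma, the spread rested on the pair of the other group, and the lone library was assumed to vary alike. For Lin28a and L1td1 the A libraries nearly coincide, so a fit without B1 or B2 leaves out the wider spread of the B pair. Calls from these fits are therefore not given, though some of the 23 losses come from them. On the 5 pathway lists the authors' test called 2 higher and 3 lower. The number higher was 4 with p-values adjusted over genes with a mean of at least 50, 5 at an adjusted p of 0.1, 1 at 0.01, and 0 with limma under each filter, pseudocount and scaling. Calls from the fits with 1 library left out are not given for the lists either. The cause of these differences was not tested. With the longest transcript as the length, 8 of 10 members kept their rank, and Igf2bp2 and Trim71 changed places. Counting error was small for the members, and no let-7 gene had more than 12 counts in a library. No paired analysis was possible because the table's columns carry no replicate numbers.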
